A study of Mus musculus with 16 samples.

Results

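The vascular endothelial growth factor (VEGF) and angiopoietin axis was followed through end-stage mammary tumours as 10 genes. They are the ligands Vegfa, Vegfb, Vegfc, Figf, Pgf and Angpt2, the receptors Kdr, Flt1 and Tek, and the co-receptor Nrp1. Each is reported whatever its values, but the list was chosen with earlier results of these data known. All 10 were among the 23467 gene symbols of the HiSeq count tables. The data are Drop-seq counts, in which single cells are captured in droplets with barcoded beads and the 3′ ends of their transcripts are counted as unique molecular identifiers (UMIs), from 2 mouse models of triple-negative breast cancer. WB1P tumours (WapCre;Brca1F/F;Trp53F/F) lose Brca1 and Trp53 where the Wap promoter drives Cre, in mammary epithelium. WB1P-Myc tumours carry the same alleles and a Cre-activated Myc-IRES-Luc construct in the Col1a1 locus, so loss of Brca1 and Trp53 is shared by both groups. The mice were untreated, their age is not stated in the labels, and live dapi-negative singlets were sorted before droplet formation. Each model was counted in 4 droplet fractions on a HiSeq2500, none of them assigned to a mouse in the sources used here. The 8 libraries gave 1307 WB1P and 3491 WB1P-Myc cells after filtering.

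VEGF-A, PlGF (Pgf) and VEGF-B are secreted ligands of FLT1 (VEGFR1), and VEGF-A is also the main ligand of KDR (VEGFR2), the receptor through which it drives endothelial sprouting. VEGF-C and VEGF-D (Figf, named Vegfd in the annotation) act mainly on FLT4 (VEGFR3) and are known for lymphatic growth. NRP1 is a co-receptor that binds VEGF-A and class 3 semaphorins. TEK (TIE2) is the endothelial angiopoietin receptor, ANGPT1 its activating ligand, and ANGPT2 a context-dependent antagonist released by activated endothelium. Hypoxia is a known inducer of Vegfa. Secretion, splice forms such as soluble FLT1, and receptor activity are not seen in 3′ UMI counts.

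Cells were grouped into classes by clustering without the 10 genes and without the pathway genes described further on, and classes were named from marker lists. The endothelial-like class held 37 WB1P and 71 WB1P-Myc cells, in fractions of 1, 13, 12 and 11 WB1P cells and of 23, 21, 9 and 18 WB1P-Myc cells. All 11 endothelial markers had UMIs in it in both models, at a summed 7739 and 6692 CPM (UMIs of a gene per 1000000 UMIs of the class), against 28.7 to 146 CPM in the other classes. The other classes were epithelial-like (658 WB1P and 517 WB1P-Myc cells), fibroblast-like (218 and 274), macrophage-like (377 and 702) and, in WB1P-Myc only, Schwann-like (1025). One cluster stayed unnamed (17 WB1P and 902 WB1P-Myc cells), with Sox10 as its single leading marker. Its WB1P-Myc cells had UMIs of all 13 epithelial markers, at a summed 1608 CPM, against 2630 CPM in the epithelial-like cells of that model. They also had UMIs of all 9 Schwann markers, at 1000 CPM, against 3371 CPM in Schwann-like cells. The epithelial-like class was 1 cluster in each model rather than a shared one: 657 of the 658 WB1P cells were in one cluster and 506 of the 517 WB1P-Myc cells in another. WB1P fraction 1 held only 65 cells, with 1 endothelial-like, 2 fibroblast-like and 2 macrophage-like cells among them, so its values outside the epithelial-like class rest on almost no counts. Median UMIs per cell ranged from 887 to 2600 over the fractions. Of the barcodes, 3 occurred in more than 1 library over 28 pairs of libraries, and 1 of these was among the cells analysed.

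Because the fractions of a model cannot be tied to separate tumours, each model counted as 1 sample, and no test between models or classes was run. Intervals in brackets are 95% counting intervals and cover neither cell-to-cell nor mouse-to-mouse variation. Each library holds cells of 1 model, so differences between models and between their sample preparations cannot be told apart. UMIs from 3′ ends do not grow with transcript length, and a CPM value here is a share of counted molecules.

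The 3 receptors Kdr, Flt1 and Tek had their highest levels in endothelial-like cells, and the sequences upstream of their starts are shown because these genes were high in the same class. RefSeq (GRCm38.p6) gave an entry for 9 of the 10 genes. The 250 bases before the start are at chr5:75978456-75978705 (minus strand) for Kdr, chr5:147726012-147726261 (minus strand) for Flt1 and chr4:94739039-94739288 (plus strand) for Tek. Capitals mark AGGAA or its reverse complement TTCCT, a core shared by many ETS-family sites, a family known for roles in endothelial genes.
Kdr: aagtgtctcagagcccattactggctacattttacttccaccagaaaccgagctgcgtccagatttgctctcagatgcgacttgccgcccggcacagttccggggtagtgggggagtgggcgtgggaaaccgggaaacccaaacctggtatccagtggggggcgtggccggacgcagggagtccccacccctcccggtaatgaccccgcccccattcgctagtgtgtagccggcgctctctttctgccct
Flt1: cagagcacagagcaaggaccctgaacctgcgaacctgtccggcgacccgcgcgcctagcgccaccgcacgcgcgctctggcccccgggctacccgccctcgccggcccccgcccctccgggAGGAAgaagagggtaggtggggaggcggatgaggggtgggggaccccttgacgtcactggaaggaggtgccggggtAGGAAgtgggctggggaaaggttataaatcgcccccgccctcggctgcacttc
Tek: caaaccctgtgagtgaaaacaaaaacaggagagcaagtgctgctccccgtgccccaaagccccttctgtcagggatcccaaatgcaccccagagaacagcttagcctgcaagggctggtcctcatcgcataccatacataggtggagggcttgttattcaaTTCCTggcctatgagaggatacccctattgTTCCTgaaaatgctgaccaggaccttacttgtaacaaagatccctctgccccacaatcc
The letters occurred 2 times each upstream of Flt1 and Tek and not in the window of Kdr. They occurred on either strand in 60.3% of 32851 RefSeq promoters of the same length, so a match is common and describes the sequence only. ACGTG, the core of the hypoxia-response element, was found in 16.6% of all promoters and, among the windows of the 9 genes, at 1 of the 2 Vegfa starts. That start lies 7206 bases from the annotated start of the gene, and the window next to the annotated start had no ACGTG.

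Kdr, the main signalling receptor for VEGF-A (chr5:75932827-75978458), was counted in endothelial-like cells at 561 CPM [389 to 784] in WB1P and 642 CPM [528 to 772] in WB1P-Myc. By fraction, Kdr stood at 0, 751, 366 and 550 CPM in WB1P and at 552, 811, 572 and 618 CPM in WB1P-Myc. The 0 came from the single endothelial-like cell of WB1P fraction 1, and otherwise the fractions of the 2 models overlapped. Elsewhere Kdr was at 10.8 CPM or less in every named class. The level in endothelial-like cells was 164 times that in all other cells, a log2 ratio of 7.36 [6.91 to 7.83], and higher in 7 of 8 fractions. Kdr had a UMI in 37.8% of the WB1P endothelial-like cells (median 1397 UMIs per cell) and in 0.304% of the deeper WB1P epithelial-like cells (median 1892 UMIs). In WB1P-Myc the shares were 54.9% (median 1949 UMIs) and 0.387% (median 4577 UMIs).

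Flt1, the high-affinity receptor for VEGF-A, VEGF-B and PlGF (chr5:147561604-147726011), was the most counted of the receptors in endothelial-like cells. Its level was 1997 CPM [1657 to 2386] in WB1P, with 0, 1679, 2303 and 2146 CPM by fraction. In WB1P-Myc the level was 1283 CPM [1121 to 1463], with 1301, 1813, 512 and 1281 CPM by fraction. The WB1P-Myc over WB1P log2 ratio was -0.64 [-0.96 to -0.31], but fraction 2 of WB1P-Myc lay above fraction 2 of WB1P, so the fractions overlapped. Against all other cells the ratio was 6.18 [5.96 to 6.41], a 72.6-fold difference in 7 of 8 fractions. Flt1 was also counted outside the endothelium, at 96.0 CPM in WB1P and 97.8 CPM in WB1P-Myc fibroblast-like cells and at 49.6 CPM in the epithelial-like cells of WB1P.

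Tek, the angiopoietin receptor (chr4:94739289-94874976), rested on fewer counts. Its endothelial-like level was 66.0 CPM [18.0 to 169] from 4 UMIs in WB1P, with 0, 0, 105 and 110 CPM by fraction. In WB1P-Myc 29 UMIs gave 166 CPM [111 to 239], with 158, 192, 30.1 and 252 CPM by fraction. The models overlapped. Tek stood 111 times higher in endothelial-like cells than in the others, with a log2 ratio of 6.80 [5.94 to 7.69] over both models. With single fractions left out, the ratio ranged from 3.89 to 5.84 within WB1P and from 7.10 to 7.81 within WB1P-Myc. Outside this class, fibroblast-like cells held 8 of the 12 Tek UMIs of WB1P (13.7 CPM) and 4 of the 40 of WB1P-Myc (4.16 CPM).

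Nrp1, the VEGF-A and semaphorin co-receptor (chr8:128358604-128503363), was the receptor gene most widely spread over classes. Endothelial-like cells had 974 CPM [741 to 1256] in WB1P and 1037 CPM [891 to 1200] in WB1P-Myc, and by fraction 1441 (1 UMI), 1325, 576 and 936 CPM against 1104, 1045, 933 and 1029 CPM. That was 8.17 times the level in other cells (log2 ratio 3.03 [2.83 to 3.22]) and higher in 8 of 8 fractions. Fibroblast-like cells followed at 279 and 281 CPM, macrophage-like cells at 210 and 391 CPM, and WB1P-Myc Schwann-like cells at 139 CPM. Epithelial-like cells were lowest of the named classes at 10.4 CPM in WB1P and 23.1 CPM in WB1P-Myc. Endothelial-like cells held 15.4% of the Nrp1 UMIs of WB1P and 10.4% of those of WB1P-Myc, against 89.5% and 67.9% of the Kdr UMIs.

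Angpt2 (chr8:18690263-18741562), the ligand that endothelium itself releases, was higher in the endothelial-like class than in any other in both models. It was counted there at 132 CPM [57.0 to 260] from 8 UMIs in WB1P (0, 221, 157 and 0 CPM by fraction) and at 97.4 CPM [56.7 to 156] from 17 UMIs in WB1P-Myc (78.9, 192, 60.2 and 45.7 CPM). Over other cells the log2 ratio was 4.74 [4.00 to 5.43], higher in 6 of 8 fractions. The abundant Schwann-like cells of WB1P-Myc had a low level, 8.18 CPM [5.76 to 11.3] with 10.3, 4.47, 12.2 and 5.68 CPM by fraction, and through their number held 37 of the 66 Angpt2 UMIs of that model (56.1%), or 23.1% with every cell thinned to 600 UMIs. Per cell, 14 of the 108 endothelial-like cells had an Angpt2 UMI, 22 a Tek UMI and 2 both. With so few cells positive for either gene, a small overlap does not show whether ligand and receptor lie in different cells. At a median of 1639 UMIs per endothelial-like cell, missing UMIs do not show that a gene was off.

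**Figure D1:**
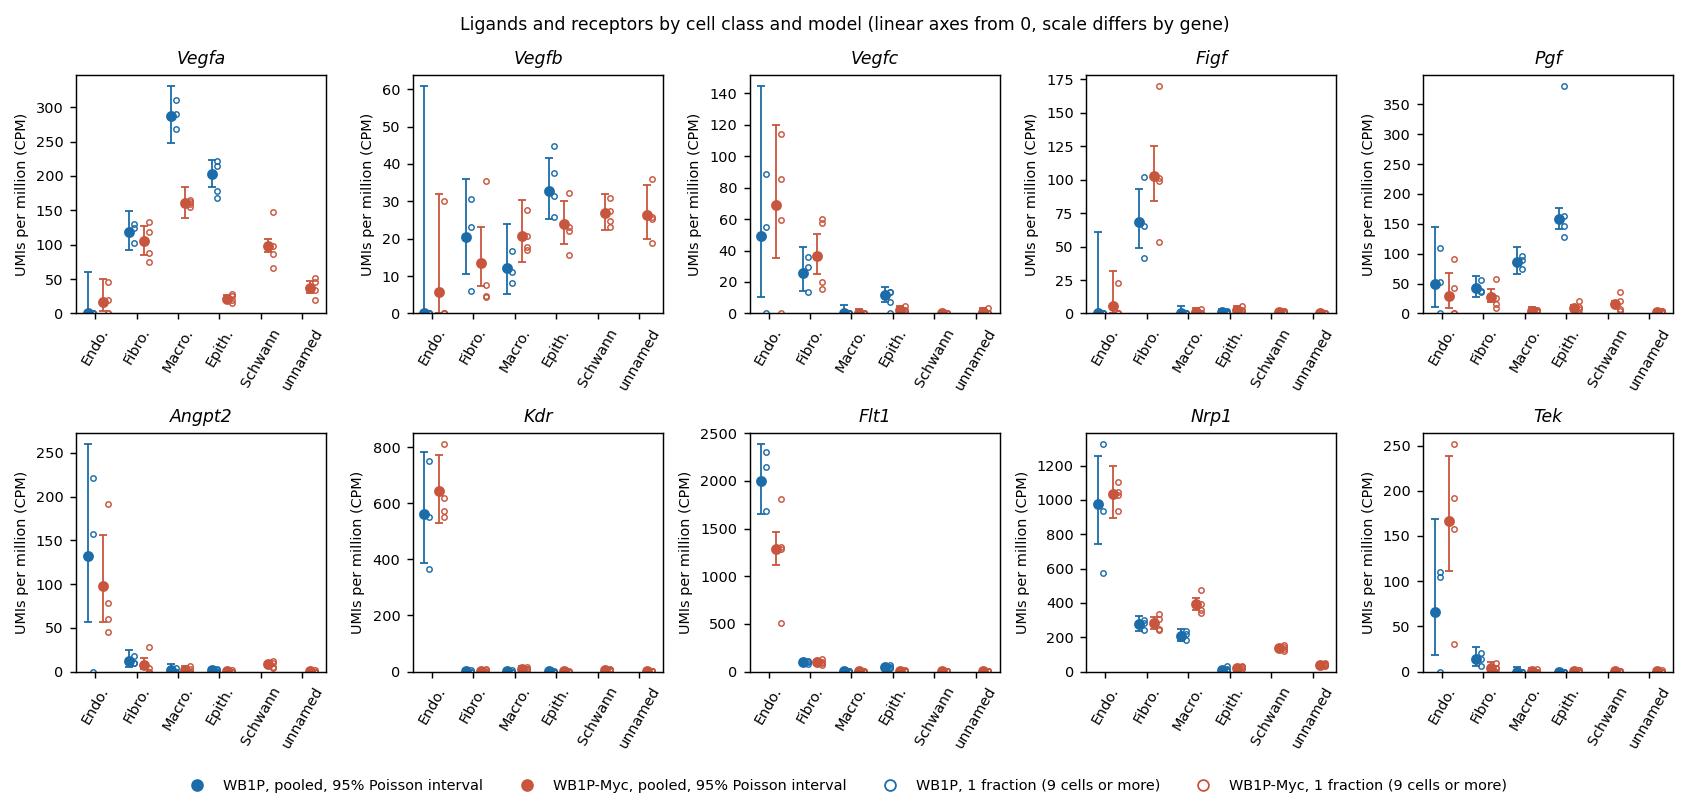
Level of each of the 10 genes in CPM (linear axes from 0, a different scale per gene) by cell class, with filled points for all cells of a model, bars for the 95% Poisson interval and open points for single fractions with 9 cells or more. Kdr, Flt1, Tek and Angpt2 stand highest in endothelial-like cells, Figf in fibroblast-like cells, and Vegfa is near 0 in endothelial-like cells while WB1P epithelial-like and macrophage-like cells reach 203 and 287 CPM.

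Counted over the whole list, all 10 genes had at least 50 UMIs in endothelial-like and other cells together. Kdr, Flt1, Tek, Nrp1, Angpt2 and Vegfc were at least 2-fold higher in endothelial-like cells, Vegfa, Vegfb and Figf at least 2-fold lower, and Pgf was between. Of all 12233 genes with that many UMIs, 15.6% were at least 2-fold higher and 17% at least 2-fold lower. The minimum covers both groups together, so a gene can reach it through the group where it is high. Tek did, with 33 of its 52 UMIs in endothelial-like cells, so its call adds no support. With the further condition that the counting interval lies on one side of equality, 11.9% of all genes were higher and 9.21% lower. Then 6 of the 10 genes were still higher, while 2 were lower, Vegfa and Vegfb, the latter on 1 UMI with an interval of -7.85 to -0.05. The calls of Vegfb and Figf each rest on 1 UMI in endothelial-like cells: without WB1P-Myc fraction 3 the Vegfb ratio was a bound of -0.73, without WB1P-Myc fraction 1 the Figf ratio was -0.80, and neither then passed 2-fold. The median log2 ratio of the 10 genes was 3.30 against 0 for all genes. Genes with no UMI in endothelial-like cells took a ratio of 0 where the floor of 3 UMIs would have put them higher there. They count among the 12233 genes but could not be called lower. The median of 0 and the share of 17% depend on this rule. The Vegfa ratio was -3.04 [-5.32 to -1.49], on 3 UMIs in 108 endothelial-like cells, and -4.47 without WB1P-Myc fraction 4, which held 2 of them. These ratios pool the models. With single fractions left out, Vegfa ranged from -3.41 to -1.65 within WB1P-Myc, and within WB1P it was only a bound. Pgf, on few UMIs, ranged from -2.43 to -0.57 within WB1P and from 0.61 to 1.65 within WB1P-Myc, on opposite sides of 0.

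**Figure D2:**
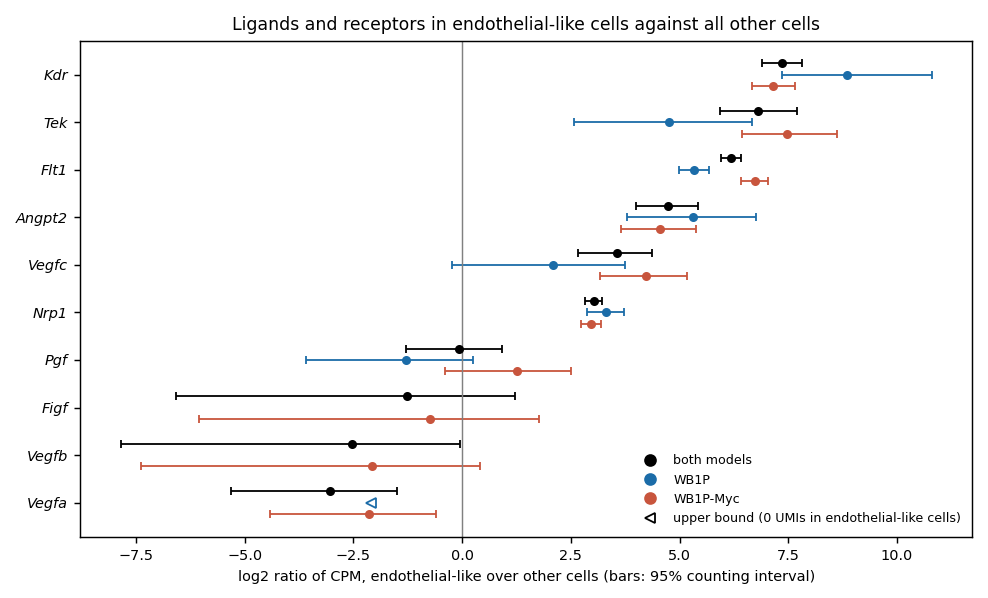
Log2 ratio of CPM in endothelial-like cells over all other cells, for both models together (black), WB1P (blue) and WB1P-Myc (red), with 95% counting intervals; a triangle marks an upper bound where no UMI was counted. Kdr (7.36), Tek (6.80) and Flt1 (6.18) lie far to the right and Vegfa (-3.04) to the left of 0, and a model without UMIs in endothelial-like cells has no point for Vegfb or Figf.

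Over single endothelial-like cells, Kdr or Flt1 was counted in 83 of 108 (76.9% [67.8 to 84.4]), both in 42 (38.9%), Flt1 alone of the pair in 30 and Kdr alone in 11. In fibroblast-like cells, which are deeper (medians of 2252 and 2717 UMIs in WB1P and WB1P-Myc, against 1397 and 1949), a Flt1 UMI was found in 12.8% and 13.1% of cells and a Kdr UMI in 0.459% and 1.09%. In the 2 models the share with Kdr or Flt1 was 73.0% [55.9 to 86.2] of 37 WB1P cells and 78.9% [67.6 to 87.7] of 71 WB1P-Myc cells, so the intervals overlapped.

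Mural cells, the pericytes that wrap capillaries, are a possible admixture to both vascular and fibroblast classes, and their markers were present in both. In endothelial-like cells the 8 pericyte markers summed to 858 CPM in WB1P (5 of 8 with a UMI, Cspg4, Higd1b and Notch3 at 0) and 1862 CPM in WB1P-Myc (8 of 8, with fractions from 1052 to 4364 CPM), against 751 and 784 CPM in fibroblast-like cells. A UMI of the pericyte marker Rgs5 was found in 20 of the 108 endothelial-like cells. Those 20 cells had 566 CPM of Kdr and 1075 CPM of Flt1, and the 88 others 637 and 1581 CPM, so both receptors were counted in cells without Rgs5. Of 6 lymphatic markers, 4 in WB1P and 5 in WB1P-Myc had a UMI in endothelial-like cells, with Ccl21a at 0 in both. The share of lymphatic cells in the class was not tested.

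Within fibroblast-like cells Flt1 was uneven. When these cells were clustered again, a group of 264 cells, with Acta2, Spp1 and Tagln as its top genes and the pericyte markers Rgs5, Cspg4, Higd1b and Mcam also leading in it, had 152 CPM of Flt1 [128 to 179], and a fibroblast-like group of 202 cells, led by Col3a1, Dcn, Lum, Pdgfra and Dpt, had 5.31 CPM [1.09 to 15.5]. By the naming rule the group of 264 cells was pericyte-like, although no pericyte marker was among its top genes. It is called Acta2-led here. The split in Flt1 held in each model, with 145 against 14.2 CPM in WB1P and 157 CPM against 0 Flt1 UMIs in WB1P-Myc. The 62 fibroblast-like cells with an Rgs5 UMI reached 484 CPM of Flt1 and the 430 without it 59.7 CPM. Tek went the other way, with 11 UMIs in the fibroblast-like group (19.5 CPM) and 1 in the Acta2-led group.

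Receptor UMIs were also set against those of the 11 endothelial markers in the same class. Per 100 endothelial-marker UMIs, endothelial-like cells held 7.25 and 9.59 UMIs of Kdr (WB1P and WB1P-Myc), 25.8 and 19.2 of Flt1, and 12.6 and 15.5 of Nrp1. Fibroblast-like cells held 65.9 and 108 of Flt1, and WB1P epithelial-like cells 81.3 of Flt1, all above the ratio of the endothelial-like cells. In WB1P-Myc epithelial-like cells Flt1 was at 9.57, below it. For Kdr the ratio was 31.1 [17.0 to 52.2] in WB1P-Myc macrophage-like cells, on 14 UMIs, and 12.1 [8.09 to 17.4] in Schwann-like cells, the latter overlapping that of endothelial-like cells. Nrp1 ratios of 192 or more in fibroblast-like, macrophage-like and Schwann-like cells were above both endothelial-like values. The part of free RNA in these UMIs was not tested.

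Vegfa (chr17:46016993-46032369), the central ligand of the family, was counted in tumour, stromal and immune classes, and hardly in the endothelium. In WB1P its order was macrophage-like (287 CPM [248 to 331]; 0, 310, 290 and 269 CPM by fraction), epithelial-like (203 CPM [184 to 223]; 168, 215, 221 and 179 CPM) and fibroblast-like (118 CPM [92.0 to 150]; 0, 102, 130 and 124 CPM). No Vegfa UMI was counted in the 37 WB1P endothelial-like cells, where the floor of 3 UMIs stands for 49.5 CPM. The intervals of the 3 classes did not overlap one another. In the MiSeq tables of the same fractions, however, the macrophage-like over epithelial-like log2 ratio was -0.34, against 0.50 here. Those tables hold fewer UMIs, except for WB1P fraction 1 (458285 by MiSeq and 256985 by HiSeq). Their barcodes hardly overlap those of the HiSeq tables, and their cells were clustered on their own. In addition, the 17 unnamed WB1P cells held 22 Vegfa UMIs, a level of 962 CPM [603 to 1456].

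In WB1P-Myc the epithelial-like cells stood below the macrophage-like, fibroblast-like and Schwann-like cells, although in the MiSeq tables the log2 ratios over epithelial-like cells were 0.94 for macrophage-like and 0.060 for fibroblast-like cells. Macrophage-like cells stood at 160 CPM [139 to 184] (154, 162, 165 and 160 CPM by fraction), fibroblast-like cells at 105 CPM [85.6 to 128] (87.4, 133, 118 and 74.8 CPM) and Schwann-like cells at 98.1 CPM [89.2 to 108] (86.6, 98.4, 148 and 66.2 CPM). Fibroblast-like and Schwann-like levels did not differ beyond their intervals. The unnamed cells followed at 37.1 CPM [29.3 to 46.5] and the epithelial-like cells at 21.4 CPM [16.5 to 27.4], with 15.0, 19.4, 28.5 and 24.7 CPM by fraction. The endothelial-like level of 17.2 CPM [3.54 to 50.2], on 3 UMIs, could not be distinguished from the epithelial-like one.

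Between models, Vegfa in epithelial-like cells was 9.45 times lower in WB1P-Myc, a log2 ratio of -3.24 [-3.65 to -2.86], and each WB1P-Myc fraction lay below each WB1P fraction. In macrophage-like cells the difference was smaller, -0.84 [-1.13 to -0.55], with the 3 WB1P fractions of more than 2 cells all above the 4 WB1P-Myc fractions. In fibroblast-like cells the levels were close, at a ratio of -0.17 [-0.63 to 0.29]. Over all cells of a model Vegfa was 206 CPM in WB1P and 75.0 CPM in WB1P-Myc. Within WB1P-Myc, Schwann-like cells exceeded epithelial-like cells by 2.19 [1.81 to 2.60], or 4.58-fold, in 4 of 4 fractions. In the MiSeq tables that last ratio was -0.49, and the epithelial-like ratio between models -1.63.

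The epithelial-like difference in Vegfa was accompanied by marker and depth differences between its 2 clusters. Epithelial markers with a UMI numbered 12 of 13 in WB1P (Krt5 at 0) and 13 of 13 in WB1P-Myc, summing to 5728 CPM (fractions 5290 to 8950) and 2630 CPM (fractions 2003 to 3634). Median UMIs per cell were 1892 and 4577. With every cell thinned to 600 UMIs, 9.42% [7.30 to 11.9] of WB1P and 1.93% [0.931 to 3.53] of WB1P-Myc epithelial-like cells had a Vegfa UMI, against 27.1% and 10.3% before thinning. The log2 ratio after thinning was -2.60. The part of depth and marker level in the difference beyond this was not tested.

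Pgf, the placental growth factor that binds FLT1 but not KDR (chr12:85166635-85177790), had its highest WB1P level in epithelial-like cells and a wider difference between models there than Vegfa. WB1P epithelial-like cells stood at 158 CPM [141 to 176], with 381, 164, 127 and 146 CPM by fraction, and WB1P-Myc epithelial-like cells at 9.53 CPM [6.33 to 13.8], with 1.15, 6.92, 21.3 and 10.8 CPM. Macrophage-like cells had 86.1 CPM in WB1P (0, 88.7, 96.7 and 74.4 CPM) and 4.63 CPM in WB1P-Myc (2.97, 5.89, 6.12 and 3.40 CPM). Pgf was thus lower in WB1P-Myc in both classes, by log2 ratios of -4.05 [-4.66 to -3.49] and -4.22 [-5.72 to -3.01]. The epithelial-like ratio was -4.76 without WB1P-Myc fraction 3. Over the other settings that kept all fractions it ranged from -5.20 to -3.96 and the macrophage-like ratio from -5.65 to -2.58, the latter a bound from the MiSeq tables. The fibroblast-like cells, at 42.9 and 28.1 CPM, differed by -0.61 [-1.45 to 0.24], an interval that includes 0, and by -1.32 without WB1P-Myc fraction 2. WB1P-Myc Schwann-like cells had 16.6 CPM, uneven over fractions at 20.6, 4.47, 35.5 and 6.62 CPM, and their 75 UMIs lay in 19 of 1025 cells. Endothelial-like cells had 49.5 CPM [10.2 to 145] on 3 UMIs in WB1P and 28.6 CPM [9.30 to 66.9] on 5 UMIs in WB1P-Myc.

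Vegfb, a FLT1 ligand known for roles in fatty acid handling (chr19:6982473-6987651), was low in every class. Its level lay between 12.1 and 32.7 CPM in the named classes other than the endothelial-like one, where 1 UMI was counted, and in WB1P the macrophage-like interval [5.22 to 23.8] lay below the epithelial-like one [25.3 to 41.6]. Of the 13 UMIs in WB1P-Myc fibroblast-like cells (13.5 CPM), 9 came from fraction 3 (35.5 CPM, against 4.40 to 7.61 CPM in the other 3). In epithelial-like cells Vegfb was 32.7 CPM in WB1P (44.8, 37.5, 25.8 and 31.5 CPM by fraction) and 23.8 CPM in WB1P-Myc (32.3, 22.1, 15.7 and 23.2 CPM), a log2 ratio of -0.46 [-0.96 to 0.05]. The fractions overlapped. In the same cells Vegfa differed by -3.24, so the 2 ligands did not move together.

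Of the FLT4 ligands, Figf was counted mainly in fibroblast-like cells and Vegfc in several classes. Figf (chrX:164373378-164402650) stood at 68.6 CPM [49.0 to 93.4] in WB1P fibroblast-like cells (0, 102, 41.8 and 65.2 CPM by fraction) and at 103 CPM [83.7 to 125] in those of WB1P-Myc (170, 53.3, 98.7 and 101 CPM). This was 72.8 times the level of all other cells, a log2 ratio of 6.19 [5.45 to 7.01]. The ratio between models was 0.59 [0.04 to 1.16] with overlapping fractions. Within the class Figf was 204 CPM [168 to 244] in the fibroblast-like group and 25.4 CPM [16.3 to 37.8] in the Acta2-led group, the opposite of Flt1, and none of the 62 cells with an Rgs5 UMI had a Figf UMI.

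Vegfc (chr8:54077606-54187096) was counted in fibroblast-like and endothelial-like cells of both models. Fibroblast-like levels were 25.7 CPM in WB1P (0, 35.7, 13.9 and 29.6 CPM by fraction) and 36.4 CPM in WB1P-Myc (59.8, 15.2, 19.7 and 57.2 CPM), and endothelial-like levels 49.5 CPM on 3 UMIs and 68.8 CPM on 12 UMIs. Endothelial-like cells exceeded other cells by a log2 ratio of 3.57 [2.67 to 4.37], or 11.9-fold, in 5 of 8 fractions. WB1P epithelial-like cells had 11.4 CPM and WB1P-Myc ones 2.04 CPM. No Vegfc UMI was counted in 1079 macrophage-like or 1025 Schwann-like cells.

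The share of a ligand's UMIs in each class combines level, cell number and depth. Of 690 Vegfa UMIs in WB1P, epithelial-like cells held 59.3% [55.5 to 63.0], close to their 60.3% of all UMIs, macrophage-like cells 27.5%, fibroblast-like cells 10% and endothelial-like cells 0. Of 895 in WB1P-Myc, Schwann-like cells held 49.6% [46.3 to 52.9], above their 37.9% of all UMIs, macrophage-like cells 23.2%, fibroblast-like cells 11.3% and epithelial-like cells 7.04%, below their 24.6%. Epithelial-like cells held 78.7% of the Pgf UMIs in WB1P, and Schwann-like cells 51.4% of them in WB1P-Myc, or 41.2 to 60.9% when single fractions were left out. Fibroblast-like cells held 95.2% and 86.8% of the Figf UMIs in the 2 models. For Vegfc, epithelial-like cells held 56.1% and fibroblast-like cells 36.6% in WB1P, and fibroblast-like cells 63.6% and endothelial-like cells 21.8% in WB1P-Myc. Sorting and dissociation set how many cells of each class reach the droplets, so these shares describe the libraries.

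**Figure D3:**
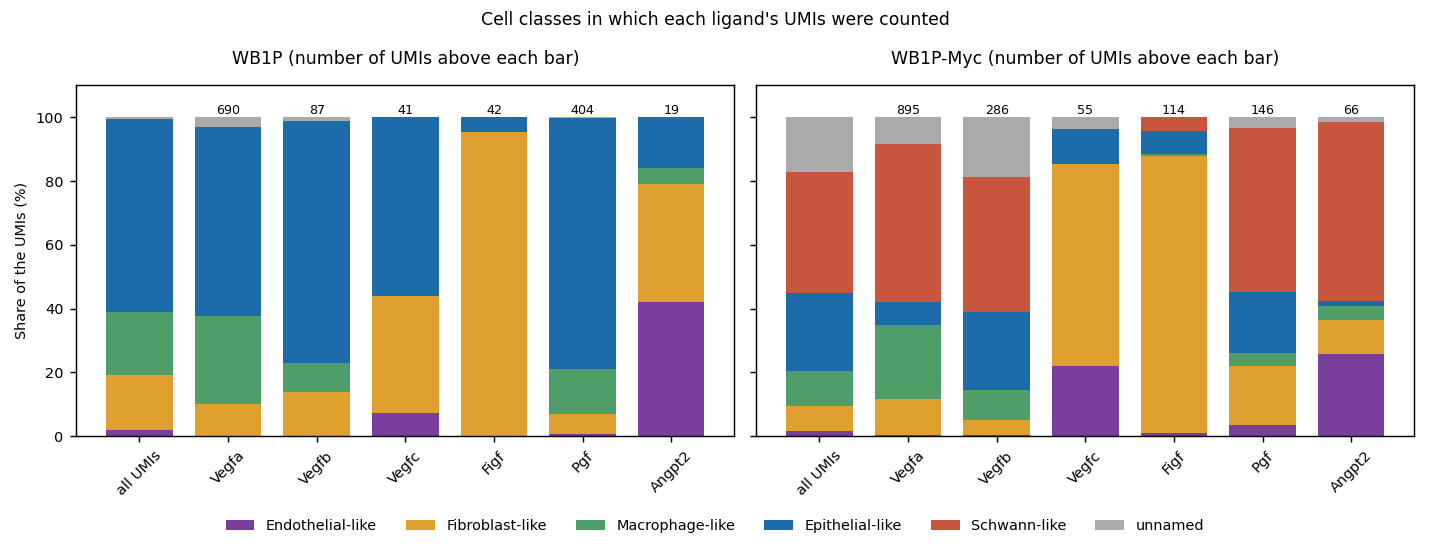
Share (%) of all UMIs and of each ligand's UMIs that were counted in each cell class, with the number of UMIs above each ligand's bar, for WB1P (left) and WB1P-Myc (right). Epithelial-like cells hold the largest share of the Vegfa and Pgf UMIs in WB1P (59.3% and 78.7%) and Schwann-like cells in WB1P-Myc (49.6% and 51.4%), and Figf UMIs in fibroblast-like cells in both.

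The macrophage-like class held 3 groups when clustered again, with different levels of the axis genes. All class values include 69 T or NK-like cells (14 WB1P and 55 WB1P-Myc, led by Cd3d, Cd3e, Trac and Nkg7), which had 79.5 CPM of Vegfa and 14.5 CPM of Nrp1. A macrophage-like group of 698 cells, led by C1qa, C1qb, Mrc1 and Ms4a7, had 465 CPM of Nrp1 and 170 CPM of Vegfa, and an unnamed group of 312 cells, with Il1r2, Mmp12 and Dcstamp as its top genes, had 92.1 CPM of Nrp1 and 313 CPM of Vegfa. WB1P had 162 cells in this macrophage-like group and 201 in the unnamed one, and WB1P-Myc 536 and 111. Vegfa was 217 CPM [164 to 281] in WB1P and 158 CPM [135 to 184] in WB1P-Myc in the macrophage-like group, and 345 CPM [289 to 409] and 235 CPM [165 to 323] in the unnamed one, with overlapping intervals in each. Pgf was 73.5 CPM [44.3 to 115] against 0.981 CPM [0.0248 to 5.47] in the former and 98.7 CPM [69.9 to 135] against 31.7 CPM [10.3 to 74.0] in the latter, where the intervals overlapped slightly. For Nrp1, 391 CPM in all macrophage-like cells of WB1P-Myc (472, 359, 340 and 391 CPM by fraction) stood against 210 CPM in WB1P (0, 216, 235 and 182 CPM), a log2 ratio of 0.90 [0.62 to 1.18]. Within groups the Nrp1 levels were closer, at 402 and 481 CPM in the macrophage-like and 90.9 and 95.1 CPM in the unnamed group, while the shares of the 2 groups differed between models.

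Over the list as a whole, counts of genes past 2-fold between models were read against all genes. In epithelial-like cells 5 of the 10 genes had at least 50 UMIs over both models; Vegfa, Pgf and Flt1 were at least 2-fold lower in WB1P-Myc, Nrp1 was higher (1.15 [0.43 to 1.93]) and Vegfb was between. Of 8304 genes in that comparison 15.3% were lower and 13.1% higher by that measure. A gene could reach the minimum through the model where it is high. Pgf did, with 318 UMIs in WB1P and 28 in WB1P-Myc. Flt1 also did through WB1P, and Nrp1 through WB1P-Myc. These calls therefore add no support, and the counts describe the genes only. Flt1 in these cells was 49.6 CPM in WB1P (33.6, 37.5, 49.8 and 64.6 CPM by fraction) and 6.13 CPM in WB1P-Myc (3.46, 6.92, 11.4 and 3.09 CPM), a log2 ratio of -3.02 [-3.83 to -2.28]. In the MiSeq tables that ratio was 1.90, the opposite direction, and the Nrp1 ratio was 6.48. Leaving out single fractions took the Nrp1 ratio as low as 0.92, and other settings as low as 0.86, short of 2-fold. In macrophage-like cells Pgf was lower among 3 genes counted, against 3.09% of 5174 genes lower and 5.45% higher. It reached the minimum there through WB1P, with 57 UMIs against 6 in WB1P-Myc. In fibroblast-like cells none of 6 genes passed 2-fold, against 2.69% of 4421 genes higher and 1.95% lower. Between Schwann-like and epithelial-like cells of WB1P-Myc, Vegfa and Nrp1 were higher in Schwann-like cells among 4 genes counted, against 13.3% of 9610 genes higher and 7.6% lower. In the MiSeq tables both went the other way, Vegfa at -0.49 and Nrp1 at -1.80. Genes under 50 UMIs are not in these counts.

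**Figure D4:**
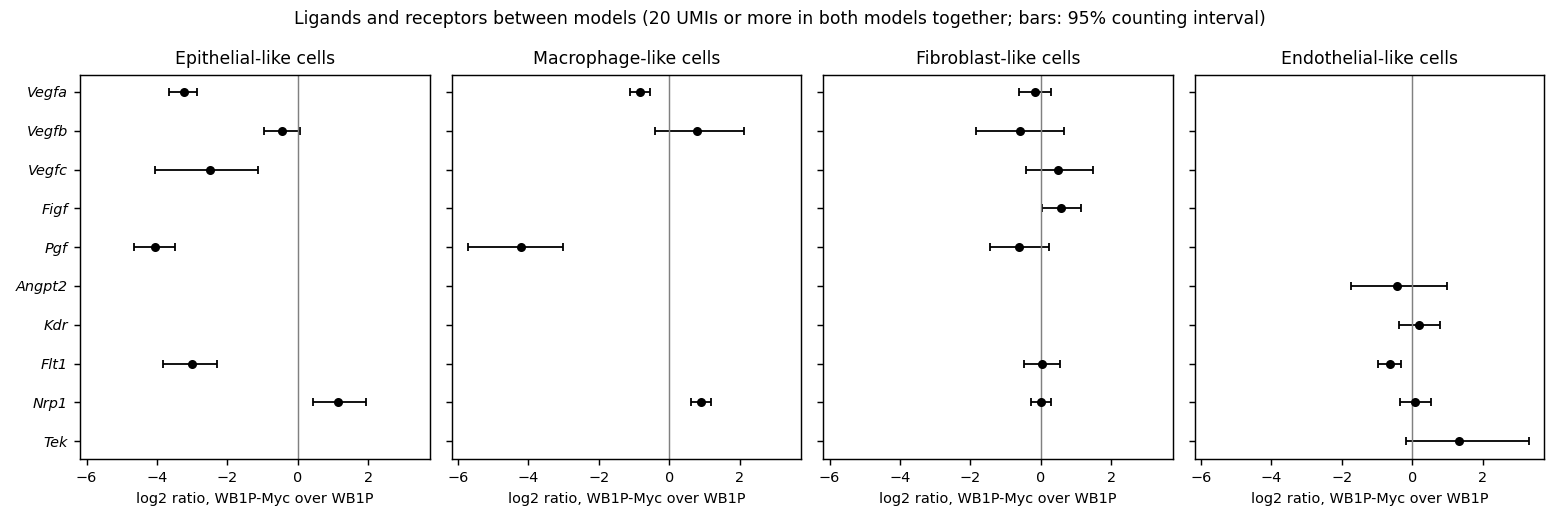
Log2 ratio of CPM, WB1P-Myc over WB1P, in 4 cell classes, for genes with 20 UMIs or more in both models together, with 95% counting intervals. Vegfa (-3.24), Pgf (-4.05) and Flt1 (-3.02) lie well to the left in epithelial-like cells, Pgf also in macrophage-like cells (-4.22), and no fibroblast-like point reaches 2-fold.

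In endothelial-like cells themselves, no receptor other than Flt1 differed between the models beyond counting error. WB1P-Myc stood to WB1P at log2 ratios of 0.19 [-0.37 to 0.79] for Kdr, 0.09 [-0.34 to 0.54] for Nrp1, -0.44 [-1.73 to 0.98] for Angpt2 and 1.33 [-0.18 to 3.30] for Tek. Without WB1P fraction 2 the Angpt2 ratio was 0.30 and the Tek ratio 0.66, and without WB1P-Myc fraction 2 the Angpt2 ratio was -1.07. With cells thinned to 600 UMIs the Angpt2 ratio was 1.87, so no direction can be read for it. These intervals include 0 and are wide, so differences of up to about their bounds were not detectable at this depth. The Flt1 ratio of -0.64 had an interval that excluded 0, and its fractions overlapped between models as given above. Fibroblast markers in these cells summed to 347 CPM in WB1P and 814 CPM in WB1P-Myc, with a WB1P-Myc fraction at 2649 CPM. The part of other cell types in the Flt1 ratio was not tested.

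The other receptors and co-receptors of the pathway were Flt4, Nrp2, Tie1, Ptprb and Plxnd1. Of these, 4 had at least 50 UMIs and all 4 were at least 2-fold higher in endothelial-like cells, against 15.6% of all genes. The minimum covers both groups together and could be reached through the endothelial-like cells, so the count describes these genes only. Nrp2, a co-receptor of VEGF-C, was at 2.05 [1.64 to 2.44]. Plxnd1, a semaphorin receptor, was at 4.27 [3.85 to 4.68]. Ptprb, the endothelial phosphatase that restrains TEK, was at 7.96 [7.5 to 8.44] and Tie1, the partner of TEK, at 8.81 [7.66 to 10.20]. Flt4, the receptor of VEGF-C and VEGF-D, had 21 UMIs in endothelial-like cells and 2 in all others.

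Of the 6 other ligands, 4 had enough UMIs. Apln and Sema3f were at least 2-fold higher in endothelial-like cells, Sema3c at least 3.91-fold lower with 0 UMIs, and Angpt1 between. Of all genes 15.6% were higher and 17% lower. Angpt4 and Sema3a had too few UMIs. Angpt1, the activating ligand of TEK, was counted mainly in fibroblast-like cells, at 75.4 CPM [54.8 to 101] in WB1P and 34.3 CPM [23.6 to 48.2] in WB1P-Myc. It was lower in WB1P-Myc in fibroblast-like cells (log2 ratio -1.13 [-1.83 to -0.45]) and in epithelial-like cells (-1.70 [-2.52 to -0.93]). Tip cells are the leading cells of a vascular sprout. Among 7 genes linked to them, all 6 with enough UMIs were at least 2-fold higher in endothelial-like cells, against 15.6% of all genes. Here too the minimum could be reached through the endothelial-like cells, so the count describes these genes only. The tip-cell genes of largest count were Cxcr4 (1.78), Unc5b (2.77), Pdgfb (2.93) and Kcne3 (9.24). The NOTCH ligand Dll4, named after its values were seen, had 34 UMIs in endothelial-like cells and 1 elsewhere.

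Of 15 hypoxia-response genes, 7 were at least 2-fold lower in endothelial-like than in other cells, 5 were between and 3 were higher (Ankrd37, Hif1a and Epas1), with a median log2 ratio of -0.99. Of all genes 17% were lower, a share that depends on the floor rule given above, and 15.6% were higher. The 3 higher genes are close to the latter share. Those of largest count were Mif (-2.05), Ldha (-1.12), Pgk1 (-0.99) and Higd1a (-0.92). Epas1, which encodes HIF-2α and was named after its values were seen, stood at 5.21 [4.69 to 5.73]. A gene could reach the minimum through the group where it is high, and the list was chosen with earlier results known. These counts and the median describe the listed genes only.

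Between models, 8 of 14 hypoxia-response genes were at least 2-fold lower in WB1P-Myc epithelial-like cells and none was 2-fold higher, with a median of -1.18 against -0.05 for all genes, of which 15.3% were lower and 13.1% higher. The other 6 were between. Because the minimum UMI count covers both models together, a gene lower in WB1P-Myc could reach it through WB1P alone. This list was also chosen with earlier results of these data known. The count and the median therefore describe these genes only. Of the 4 genes of largest count, 3 did not go with the lower genes: Ldha was at 0.38 [0.29 to 0.48] and Pgk1 at 0.07 [-0.10 to 0.23], and Mif at 0.98 [0.91 to 1.05] was nearly 2-fold higher, while Higd1a was among the lower ones at -1.13. Named after their values were seen, Ndrg1 was at -2.28, Adm at -2.44 and Slc2a1, the glucose transporter GLUT1, at -1.41. In macrophage-like cells 1 of 9 was lower (Ndrg1, -1.22), against 3.09% of all genes, and in fibroblast-like cells none of 11 passed 2-fold, against 1.95% of all genes lower and 2.69% higher. In WB1P-Myc, 7 of 14 were at least 2-fold higher in Schwann-like than in epithelial-like cells and none lower, against 13.3% of all genes higher and 7.6% lower. Vegfa was also higher in that comparison, but its ratio was -0.49 in the MiSeq tables. In these further comparisons, too, a gene could reach the minimum through the group where it is high, so the counts describe the genes only. The ratios of the hypoxia-response genes were not computed under other settings, and a link between them and Vegfa was not tested. Higd1a was among the 7, at 1.64, and Bnip3, named after its values were seen, had the largest ratio, 2.83 [2.59 to 3.09].

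**Figure D5:**
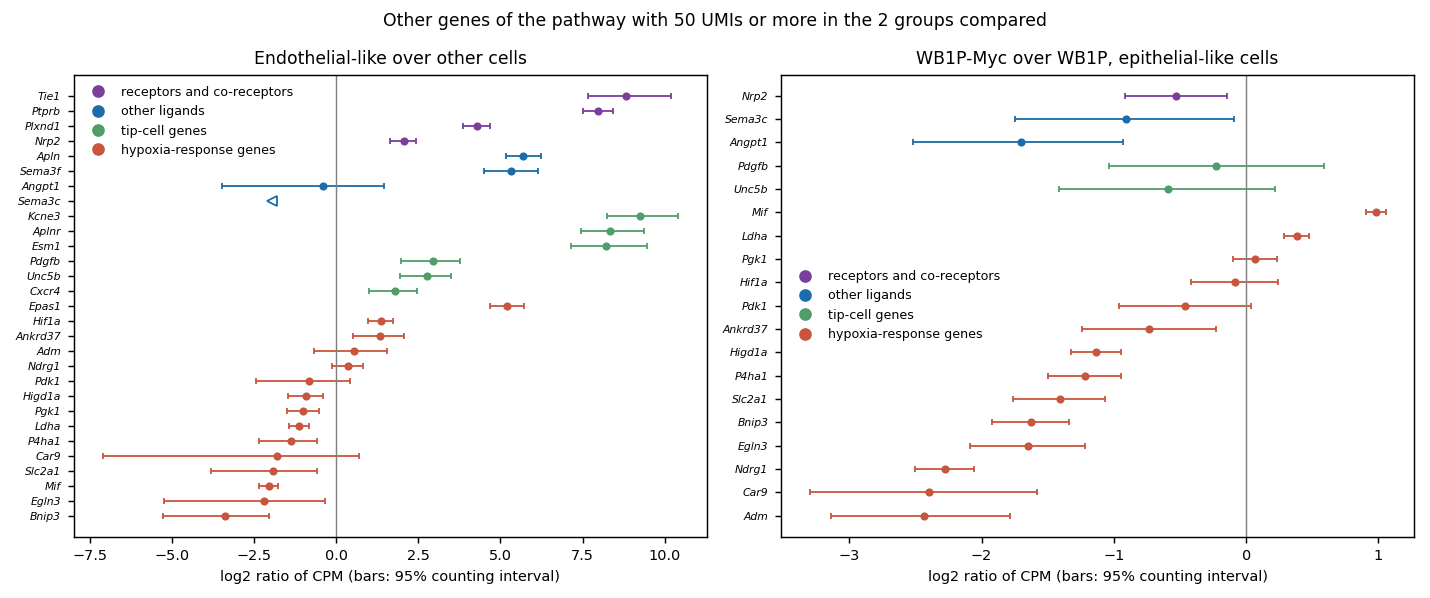
Log2 ratios of CPM for the other pathway genes with 50 UMIs or more in the groups compared, coloured by list, with 95% counting intervals, for endothelial-like over other cells (left) and for WB1P-Myc over WB1P in epithelial-like cells (right); a triangle marks an upper bound. Receptors and tip-cell genes lie right of 0 on the left, and 8 of the 14 hypoxia-response genes lie at -1 or below on the right while Mif lies at 0.98.

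Genes with the pattern most like that of 3 members were taken over the 10 class-by-model groups of at least 20 cells, by Pearson correlation of log2(CPM + 10) among genes with at least 200 UMIs. For Kdr these were Cdh5 (0.996), Nts (0.992) and Ptprb (0.989). For Angpt2 they were Cxx1a (0.990), Smad1 (0.987) and Crim1 (0.985), and for Vegfa Rnf166 (0.957), Atg3 (0.95) and Mfsd5 (0.940). The groups share libraries, and with 10 points and many genes such values describe the likeness only.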

How the data were processed

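Drop-seq UMI counts per gene symbol and barcode were used raw, as the authors deposited them, made with dropseq-tools; the submitters' processing notes name Scanpy and mm10. The 8 HiSeq tables gave the results, with 256985 to 4960334 UMIs each, and the MiSeq tables an alternative. Barcodes with 450 to 4000 genes and under 20% mitochondrial UMIs were kept. Cells were scaled to 10000 UMIs, log-transformed and clustered (30 components, 20 neighbours, Leiden resolution 0.3; scanpy 1.11.5) without 43 genes of the axis and pathway lists. Clusters were named where at least 3 markers led. The 10 genes, the lists and the comparisons were chosen with earlier results of these data known. Summed UMIs were given per 1000000, with exact 95% Poisson, Clopper-Pearson and conditional binomial intervals. A count of 0 took a floor of 3 UMIs. Pathway genes were named mainly by largest total count in each list. Some lists were named in full, and some genes are marked as named after their values were seen. The 3 genes most alike were named for Vegfa, Kdr and Angpt2. Scrublet marked 27 cells (0.563%), which were kept. WB1P fraction 1 was too small for it. TMM (edgeR 4.0.16) and DESeq2 1.42.0 size factors were alternatives. The code was tested on simulated data. No fraction is assigned to a mouse in the sources used here. Gene positions follow GENCODE on GRCm38.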

Additional observations from a re-analysis of the deposited data

Results flagged for a closer look

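Pgf in epithelial-like cells of WB1P fraction 1 stood at 381 CPM, on 34 UMIs in 60 cells, while the other 3 fractions lay between 127 and 164 CPM. Of 28 groups of 4 fractions examined in this way, chance alone marks about 1 in 20. Leaving out single fractions, the log2 ratio of WB1P-Myc over WB1P ranged from -4.76 to -3.60.

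The Vegfa level of fibroblast-like over epithelial-like cells was 2.29 on the log2 scale in WB1P-Myc and -0.78 in WB1P, with all 4 WB1P-Myc fractions on one side and the 3 WB1P fractions of enough cells on the other. The difference between the models was not tested. With cells thinned to 600 UMIs the WB1P-Myc value was 1.18. By MiSeq it was 0.060 in WB1P-Myc, with an interval that includes 0, and -1.74 in WB1P.

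UMIs of the axis were also found in barcodes of over 4000 genes, left out of every comparison here. The 40 such WB1P barcodes held Vegfa at 246 CPM, Pgf at 135, Flt1 at 97.1, Nrp1 at 28.2, Vegfb at 25.1, Kdr at 21.3, Vegfc at 14.4, Tek at 6.89 and Angpt2 at 6.26 CPM. In the 134 WB1P-Myc barcodes Nrp1 stood at 48.1 CPM, Vegfa at 40.9, Vegfb at 21.5, Flt1 at 6.04, Pgf at 3.13, Kdr at 1.56, Angpt2 at 1.34 and Vegfc at 0.894 CPM. No cell class was assigned to these barcodes.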

How the results depend on the processing

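Of the ratios and counts that carry the comparisons, 274 values under other settings stayed within the counting interval or, for counts, within 1.5 times. Another 19 moved beyond these limits and 1 reversed, and among single genes 145 moved and 5 reversed. A value counts as reversed where a ratio of at least 2-fold, with an interval that excludes equality, changed sign. Smaller ratios changed sign under other settings too, such as Vegfa in macrophage-like over epithelial-like WB1P cells. All 6 reversals so defined came from the MiSeq tables, whose barcodes hardly overlap those of the HiSeq tables. Their 1209 cells formed 5 clusters with no endothelial-like class, so no endothelial ratio could be had. There Vegfa in Schwann-like over epithelial-like cells was -0.49, Nrp1 in that comparison -1.80, Flt1 between models in epithelial-like cells 1.90, Kdr in fibroblast-like over other cells 6.06, and Nrp1 in macrophage-like and fibroblast-like over epithelial-like WB1P-Myc cells -0.94 and -0.066; Vegfa between models was -1.63 in epithelial-like and -0.35 in macrophage-like cells. The cause was not tested. With cells thinned to 600 UMIs, Vegfa between models was -2.60 in epithelial-like and -0.83 in fibroblast-like cells, and Nrp1 in endothelial-like over other cells 2.53. Per-cell means gave 2.71 for Nrp1 and 5.90 for Flt1, and Flt1 was 6.63 without Rgs5-positive cells. Without a maximum of genes, Vegfa in Schwann-like over epithelial-like cells was 1.79. Leaving out single fractions, Flt1 in endothelial-like over other cells ranged from 5.92 to 6.32. With no count minimum beyond 1, genes at least 2-fold higher or lower numbered 2797 and 2997 between epithelial-like, 1678 and 1081 between macrophage-like and 1346 and 1222 between fibroblast-like cells of the models, 2422 and 2787 between Schwann-like and epithelial-like cells, and 3000 were higher in endothelial-like cells. No cluster stayed unnamed in 5 of the settings that changed the clustering; the epithelial-like class then held 1398 to 2613 cells and the Schwann-like class 1047 to 1510. In endothelial-like over other cells, Vegfb was -0.54 with thinned cells and Figf -0.92 without Rgs5-positive cells, both short of 2-fold. Depth limits the genes with few UMIs in a class, such as Tek and Angpt2 in endothelial-like cells. Ratios of the other pathway genes were not computed under other settings. The fraction numbers of the 2 models are separate droplet collections, so the models could not be paired. Classes of a model share its fractions, and some of their differences were counted by fraction, without a test.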
